A study of Mus musculus with 11 samples.

Results

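The nuclear genes for the subunits of the mitochondrial respiratory chain and ATP synthase were compared between the hearts of 4 groups of mice. Members were the protein-coding genes of the deposited count table whose mouse symbol begins with Ndufa, Ndufb, Ndufc, Ndufs, Ndufv, Sdha, Sdhb, Sdhc, Sdhd, Uqcr, Cyc1, Cox4, Cox5, Cox6, Cox7, Cox8 or Atp5. Assembly factors (symbols beginning with Ndufaf or Sdhaf) were left out. The rule uses symbols and no measured value, but it was set with earlier results of these data known. The rule found 86 of the 35584 genes in the table: 36 of complex I, 4 of complex II, 9 of complex III, 20 of complex IV and 17 of ATP synthase. Ndufa4 and Ndufa4l2 bear complex I names and were counted with complex IV, to which NDUFA4 is known to belong. Symbols outside the rule, such as Usmg5 and Atpif1 of ATP synthase, were not members. Of the 86 genes, 84 had a mean of at least 10 normalised counts and were tested, among 13884 tested genes in all. Cox7b2 had a mean of 1.44 normalised counts and was not tested. Cox8c had 0 reads in every library, a count that allows up to 3 reads, worth between 2.12 and 4.22 normalised counts (counting error only). The lowest tested members were Cox6b2, with a mean of 20.7 normalised counts, and Cox4i2, with 83.1.

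The respiratory chain passes electrons from NADH (complex I) and succinate (complex II) through coenzyme Q, complex III and cytochrome c to oxygen at complex IV, and the proton gradient it builds drives ATP synthase. Apart from complex II, each of these complexes joins proteins made in the mitochondrion with nuclear-encoded ones, which are made in the cytosol and imported. Heart muscle depends on this system for most of its ATP, and cardiomyocytes use muscle forms of several complex IV subunits in place of the forms found in other tissues.

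The mice were males, 8 to 12 weeks old, and RNA of the entire heart was extracted with Trizol after freezing. The Macrophage-depleted group (n = 3) carried CD169-DTR, a diphtheria toxin receptor driven from the gene of the macrophage lectin CD169, and had been without these macrophages for 21 days. Diphtheria toxin (0.01 µg per g per injection) was given for 3 weeks to this group and also to the WT controls (n = 3). Mertk-KO hearts (n = 2) come from mice whose label names a knockout of Mertk, a receptor with which macrophages take up dying cells and debris. LXR-DKO hearts (n = 3, LxRαβ DKO in the labels) come from mice without the liver X receptors, nuclear receptors for oxysterols. Whether these 2 groups received toxin is not stated, so in their comparisons with WT genotype and toxin cannot be told apart. In the Macrophage-depleted group the allele and the depletion cannot be told apart either. The labels do not state that libraries of a group came from separate mice, so p-values measure the spread between libraries, which may be technical. In whole-heart RNA fewer cells of a type and less RNA per cell cannot be told apart.

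Libraries held 10938600 to 20722295 estimated reads, of which 31.4% to 36.5% were mitochondrial. Siglec1, the gene for CD169, had normalised counts of 64.3, 55.3 and 53.4 among WT libraries against 33.8, 2.12 and 0.719 after depletion (log2 difference -3.36 ± 0.80, adjusted p = 0.178). Macrophage-depleted replicate 1 thus kept far more Siglec1 than replicates 2 and 3. Mertk-KO libraries had 75.7 and 89.4 normalised counts of Mertk, and WT libraries 131, 147 and 129.9, a log2 change of -0.71 ± 0.19 (SE, limma adjusted p = 0.0408), so Mertk reads were reduced and not absent. Mertk also lay below every WT library in Macrophage-depleted (125, 93.3 and 75.4) and LXR-DKO libraries (93.6, 103 and 100), without passing the test. Mertk-KO and Macrophage-depleted libraries overlapped in Mertk (log2 difference -0.22 ± 0.19, limma adjusted p = 0.438). Its level thus did not set the Mertk-KO libraries apart from the Macrophage-depleted ones. Both Mertk-KO libraries lay below every LXR-DKO library in Mertk, without passing the test. The log2 difference of LXR-DKO against Mertk-KO was 0.26 ± 0.19 (limma adjusted p = 0.470). In LXR-DKO, Nr1h3 (LXR alpha) fell by 2.50 and Nr1h2 (LXR beta) by 2.52 on the log2 scale. Cardiomyocyte genes were high throughout: the 10 sarcomere markers summed to between 867982 and 1058914 normalised counts in every library.

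In WT hearts the members differed widely in level. On the deposited TPM scale, which is per transcript length, the catalytic beta subunit of ATP synthase, Atp5b, was highest at 3150.0 ± 52.9 (SD, n = 3). It was followed by the muscle form Cox7a1 at 2509 ± 16.8, Cox7c at 2059 ± 62.8, the muscle form Cox6a2 at 2040.5 ± 161 and the c-ring gene Atp5g3 at 1993 ± 54.4 TPM. Atp5b and Cox7a1 stood clear of the next gene by more than the spread, while Cox7c and Cox6a2 did not differ beyond their spread. At the other end, the minor forms Ndufa4l2 (20.3 ± 0.567), Cox4i2 (11.5 ± 1.30) and Cox6b2 (5.24 ± 0.807) were expressed at a small part of the level of Ndufa4, Cox4i1 and Cox6b1. Complex IV made up 30.0% of the members' summed TPM in WT and ATP synthase 30.4%, against 25.1% for complex I with its larger number of genes, 11.1% for complex III and 3.43% for complex II. Median TPM per gene in WT was 432 in complex I, 586 in complex II, 663 in complex III, 994 in complex IV and 1065 in ATP synthase.

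Promoter sequences were examined because most members shifted together, as described below. Of the 86 members, 69 were matched by symbol to RefSeq promoter windows (GRCm38.p6), with 74 windows in all, each reaching from 250 bases before to 50 bases after a gene's start. Each motif was searched on both strands. The NRF1 motif, a palindrome of 10 letters that is printed in capitals in the Ndufa11 line further on, was in 5 of the 74 windows (6.76%) and in 0.971% of all 32851 windows of the table. The ETS motif CCGGAAG, read by GABP, was in 21.6% of the members' windows and in 8.86% of all windows. The YY1 motif AAGATGGCG was in 9.46% against 1.40%, and the ERR motif TCAAGGTCA in 2.70% against 0.423%. General promoter elements were closer to the level of all windows: CCAAT in 41.9% against 37.4%, GGGCGG in 40.5% against 35.7% and TATAAA in 10.8% against 13.6%. None of these 7 motifs contains another of them. Of the 7 matches to the YY1 motif 6 lay over or after the start, while 4 of the 5 matches to the NRF1 motif lay before it. These matches describe letters in a window and are not evidence of binding.

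For the NRF1, ETS and ERR motifs a stretch of the 120 bases before the start is printed for 1 member each, without any bases that GENCODE annotates as exon on either strand. The member is the one with the smallest p in the comparison of Mertk-KO with WT, among members with 1 window and the motif in such a stretch of at least 60 bases. The motif is in capitals. Ndufa11 is an accessory subunit of the membrane arm of complex I (chr17:56717686-56717761, plus strand), Sdhd a membrane anchor of complex II (chr9:50603850-50603909, minus strand) and Atp5g3 a c-ring gene of ATP synthase (chr2:73911327-73911446, minus strand). These stretches lie outside the annotated gene, on its 5′ side, and the motifs of Sdhd and Atp5g3 lie on the opposite strand.
Ndufa11: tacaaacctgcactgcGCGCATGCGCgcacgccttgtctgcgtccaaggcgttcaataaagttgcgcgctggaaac
Sdhd: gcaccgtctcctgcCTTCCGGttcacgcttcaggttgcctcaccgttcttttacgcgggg
Atp5g3: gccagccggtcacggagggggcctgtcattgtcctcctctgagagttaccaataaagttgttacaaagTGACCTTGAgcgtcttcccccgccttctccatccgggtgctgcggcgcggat

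Counted back from the RefSeq start, the capitals cover bases 60 to 51 in Ndufa11, 46 to 40 in Sdhd and 52 to 44 in Atp5g3. The differences between Mertk-KO and WT were set beside these motifs as a description, with no test. The median log2 change was 0.37 for the 5 tested members with the NRF1 motif and 0.34 for the 63 without it. It was 0.35 for the 16 members with the ETS motif and 0.35 for the 52 without it. For the YY1 motif it was 0.35 in the 7 members with it and 0.35 in the 61 without it. For the ERR motif it was 0.31 in the 2 members with it and 0.35 in the 66 without it.

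The members of a library tended to lie on the same side of the WT mean. The median log2 difference of the 84 members from the WT mean was 0.04, -0.05 and 0.00 in the 3 WT libraries, against 0.25 and 0.44 in the 2 Mertk-KO libraries. In the LXR-DKO libraries it was 0.19, 0.30 and 0.12, and in the Macrophage-depleted libraries 0.04, -0.21 and -0.01. The spread of these medians within groups was 0.10 (pooled SD). So the Mertk-KO and LXR-DKO libraries were all above the WT libraries, whereas Macrophage-depleted replicate 2 alone lay well below them. Mertk-KO replicate 2 was the highest of the 11 libraries for 60 of the 84 members, and Macrophage-depleted replicate 2 was the lowest for 75.

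**Figure D1:**
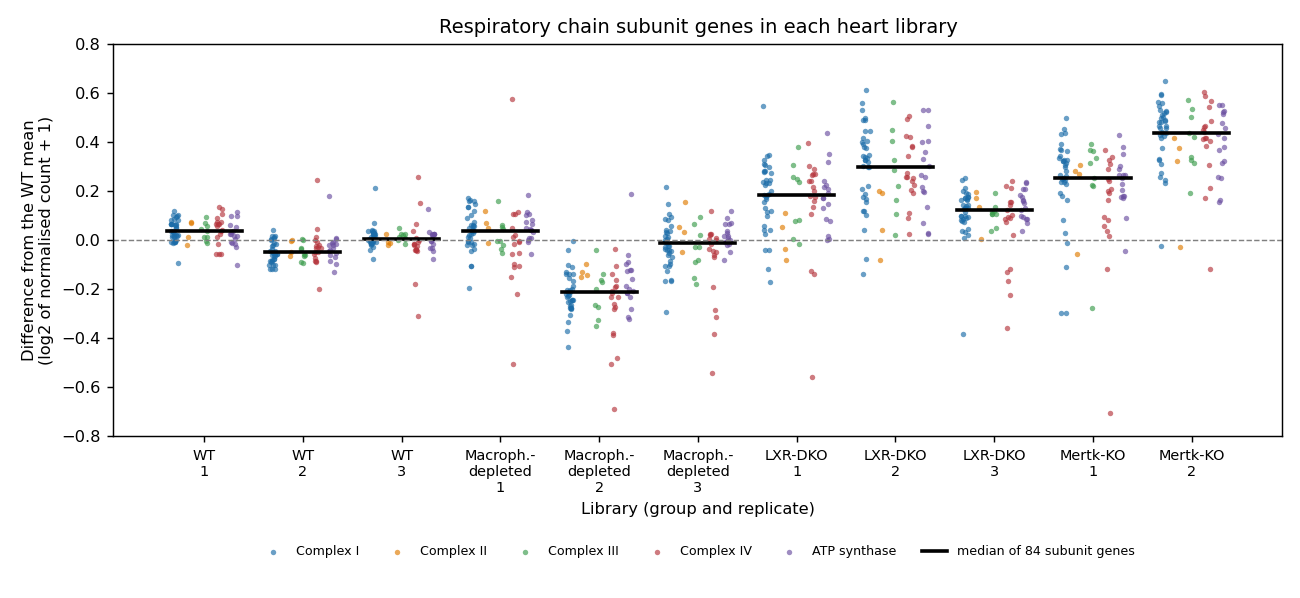
Difference of each of the 84 tested subunit genes from its WT mean (y axis, log2 of normalised count + 1) in each of the 11 libraries (x axis), coloured by complex, with the median of the 84 genes as a black bar. The bars of the 5 Mertk-KO and LXR-DKO libraries lie between 0.12 and 0.44, above the WT bars, and that of Macrophage-depleted replicate 2 lies at -0.21.

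As a share of non-mitochondrial reads, the 86 members took 5.19% ± 0.0868 (SD, n = 3) in WT, 5.03% ± 0.282 (n = 3) in Macrophage-depleted, 6.05% ± 0.405 (n = 2) in Mertk-KO and 5.68% ± 0.253 (n = 3) in LXR-DKO hearts. The Mertk-KO values of 5.76% and 6.33% and the LXR-DKO values of 5.54%, 5.97% and 5.52% all exceeded the highest WT value of 5.26%. Complex II was the exception in the size of its summed share: its 4 genes took 0.383% ± 0.00560 in WT, 0.391% ± 0.0190 in LXR-DKO and 0.405% ± 0.0167 in Mertk-KO. This sum leans on Sdha, which held 20569.5 to 20910.4 of the 38350 to 39668 normalised counts of complex II in WT libraries. Per gene, the median log2 change of complex II in Mertk-KO against WT was 0.32.

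In Mertk-KO against WT hearts, 35 of the 84 tested members rose and 0 fell (limma, Benjamini-Hochberg adjusted p below 0.05). Among all 13884 tested genes, 3.38% were called higher and 5.89% lower. The members' changes were small and alike: 81 of 84 were above 0, the median log2 change was 0.34 against -0.01 over all tested genes, and the folds of the 35 that rose ran from 1.22 (Uqcrfs1) to 1.41 (Ndufa11). For 69 members both Mertk-KO libraries lay above all 3 WT libraries, which held for 21.4% of all tested genes. The count depended on single libraries: it was 0 without WT replicate 1, 0 without WT replicate 2 and 0 without WT replicate 3. It was 8 without LXR-DKO replicate 1, 22 without Macrophage-depleted replicate 3, 12 without Mertk-KO replicate 2 (11 higher, 1 lower) and 54 without Mertk-KO replicate 1, where the lone Mertk-KO library is assumed to vary like the other groups. It was also 0 with only the 2 groups in the fit, with a weight for each library and without a trend of the variance with level.

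In Mertk-KO against WT hearts 20 of the 36 members of complex I rose, and its median log2 difference from WT was 0.37, against 0.22 in LXR-DKO and -0.06 in Macrophage-depleted hearts. Of its 7 core subunits, which carry the redox centres, 4 were called, and of its 29 accessory subunits 16. Ndufb4, an accessory subunit of the membrane arm (ENSMUSG00000022820, chr16:37647170-37654453), had normalised counts of 2121, 2141 and 2109 among WT libraries, against 2637 and 3011 in Mertk-KO. Its groups did not overlap, and it rose by 0.41 ± 0.09 (log2, SE, adjusted p = 0.0215).

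Ndufc1, a small membrane-arm subunit, was at 1889, 1929 and 1902 in WT and 2459 and 2582 in Mertk-KO, a rise of 0.40 ± 0.09 (adjusted p = 0.0254). Ndufs8, a core subunit that holds iron-sulfur clusters, was at 1893, 1732 and 1860.1 in WT and 2475 and 2566 in Mertk-KO and rose by 0.46 ± 0.11 (adjusted p = 0.0285). Ndufs3 was at 3869, 3721 and 3874 in WT and 4703 and 4953 in Mertk-KO, and rose by 0.34 ± 0.08 (adjusted p = 0.0275). In all 3 genes both Mertk-KO libraries exceeded every WT library. The core subunit Ndufs1 went the other way without passing the test, at 10554, 10715 and 10525 in WT and 8607 and 10417 in Mertk-KO (log2 difference -0.16 ± 0.09, adjusted p = 0.274), where replicate 1 was far below replicate 2.

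In complex II, which also belongs to the citric acid cycle, the iron-sulfur subunit and both membrane anchors rose while the flavoprotein did not. Sdha, the flavoprotein that oxidises succinate (chr13:74322254-74350280), was at 20910.4, 20699.8 and 20569.5 in WT and at 19907 and 20337 in Mertk-KO, just below WT (log2 difference -0.04 ± 0.10, adjusted p = 0.813). Sdhb (chr4:140961203-140979193) was at 8973, 8282 and 8448 in WT and 10597 and 11122 in Mertk-KO and rose by 0.34 ± 0.09 (adjusted p = 0.0343). Sdhc was at 5102, 4629 and 4816 in WT and 5831 and 6460.2 in Mertk-KO and rose by 0.34 ± 0.09 (adjusted p = 0.0440). Sdhd was at 4683, 4739 and 4840.1 in WT and 5772 and 5939 in Mertk-KO and rose by 0.30 ± 0.07 (adjusted p = 0.0304). Mertk-KO libraries thus lay above all WT libraries for Sdhb, Sdhc and Sdhd. The difference between Sdha and the other 3 genes was not tested as such.

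In complex III 5 of 9 members rose, with a median log2 change of 0.35. Cyc1, the haem-bearing cytochrome c1, was at 8026, 7499 and 7960.4 in WT and 10252 and 9723 in Mertk-KO and rose by 0.35 ± 0.09 (adjusted p = 0.0366). Uqcrfs1, the Rieske iron-sulfur protein, was at 7403, 7288 and 7737 in WT and 8914 and 9357 in Mertk-KO and rose by 0.29 ± 0.08 (adjusted p = 0.0379). These are the members through which electrons pass from coenzyme Q to cytochrome c. The small subunit Uqcrq rose by 0.42 ± 0.11 (adjusted p = 0.0354) and the core protein Uqcrc1 by 0.35 ± 0.09 (adjusted p = 0.0411). Uqcrb, which helps form the coenzyme Q site, was at 4607, 4577 and 4505 in WT and 3768 and 6103 in Mertk-KO, so the 2 Mertk-KO libraries fell on either side of WT (0.07 ± 0.15, adjusted p = 0.794).

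In complex IV 3 of 18 tested members rose, with a median log2 change of 0.30. Cox7a2l, which tethers complex III to complex IV in supercomplexes, was at 2418, 2259 and 2252 in WT and 2915 and 3056 in Mertk-KO and rose by 0.37 ± 0.08 (adjusted p = 0.0231). Cox4i1, the ubiquitous form of subunit 4, was at 14631, 13274 and 14067 in WT and 18030.4 and 18586 in Mertk-KO and rose by 0.39 ± 0.10 (adjusted p = 0.0346). Cox6b1, which lies at the interface of the complex IV dimer, rose by 0.44 ± 0.11 (adjusted p = 0.0377). Cox8b and Cox7a1, both muscle forms, had differences of 0.47 ± 0.14 (adjusted p = 0.0586) and 0.41 ± 0.12 (adjusted p = 0.0578) and missed the threshold. Cox6b2, known chiefly from testis, was the lowest tested member, with normalised counts of 23.4, 26.6 and 17.8 among WT libraries, against 13.3 and 20.5 in Mertk-KO (-0.41 ± 0.40, adjusted p = 0.529).

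In ATP synthase 4 of 17 members rose, all outside the catalytic head. Atp5o, the stator protein that holds the head still, was at 8966, 8740.2 and 8905 in WT and 10856 and 11978 in Mertk-KO and rose by 0.36 ± 0.09 (adjusted p = 0.0317). Atp5j2, subunit f of the membrane part, was at 4411, 3949.7 and 4032 in WT and 5257 and 6042 in Mertk-KO and rose by 0.45 ± 0.11 (adjusted p = 0.0335). Of the 3 genes that all encode the same c-ring protein, Atp5g1 rose by 0.45 ± 0.12 (adjusted p = 0.0346) and Atp5g3 by 0.32 ± 0.09 (adjusted p = 0.0445), and Atp5g2 had 0.30 ± 0.10 (adjusted p = 0.0843). In normalised counts the catalytic pair had smaller differences. Atp5a1, which encodes the alpha subunit, had 0.21 ± 0.10 (adjusted p = 0.181). Atp5b had 0.18 ± 0.10 (adjusted p = 0.227). Atp5b was at 62824, 60361 and 63092 in WT and at 71470.0 and 69553 in Mertk-KO, without overlap. On the TPM scale the differences were 0.23 ± 0.07 for Atp5a1 and 0.32 ± 0.10 for Atp5b, beside a median of 0.29 over ATP synthase. The smaller difference of Atp5b thus held in normalised counts and not in TPM.

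**Figure D2:**
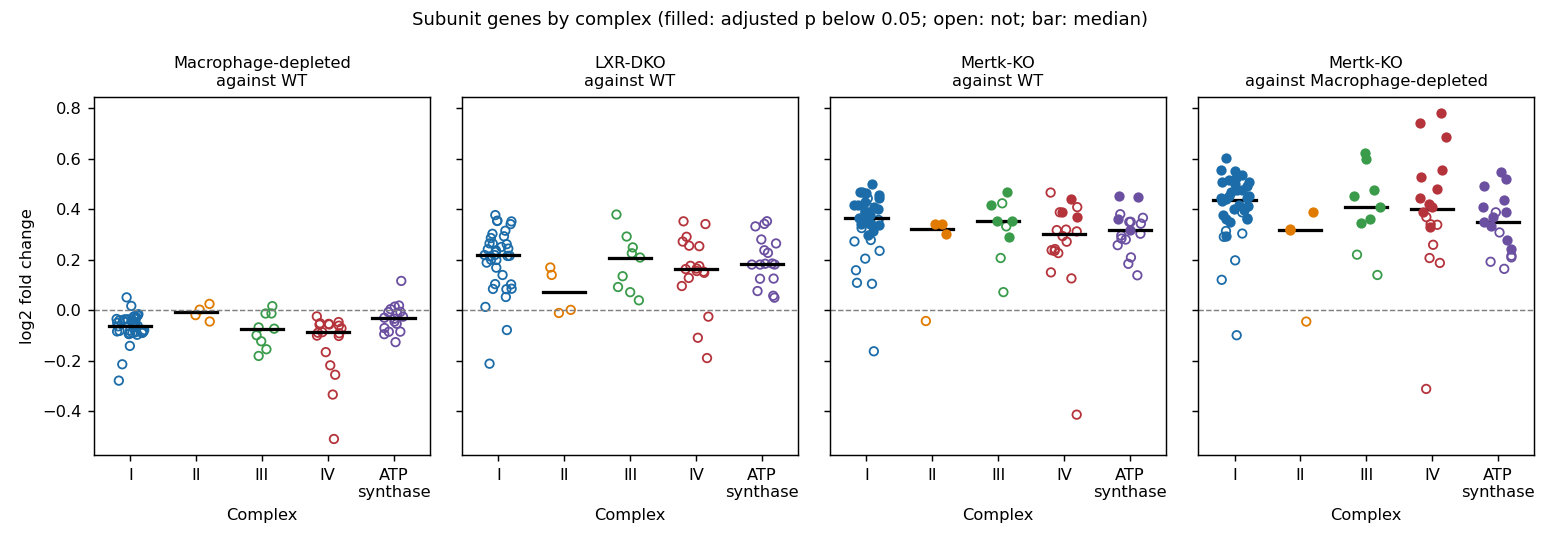
Log2 fold change of each tested subunit gene (y axis, points) by complex (x axis) in 4 comparisons, with filled points where the adjusted p was below 0.05 and black bars at the median of each complex. Filled points number 0, 0, 35 and 61 from left to right. The panels share groups, so they are not independent of each other.

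In LXR-DKO against WT hearts no member passed the test (limma, 0 of 84, with 0.418% of all tested genes called in either direction). Before adjustment 35 members had p below 0.05, and the smallest adjusted p was 0.247. The count was 0 with voom weights as well, and 15, all higher, when each library was given a weight of its own. Of the 84 members 78 were above 0, with a median log2 difference of 0.19 against 0.00 over all tested genes. For 55 members the 3 LXR-DKO libraries all lay above the 3 WT libraries, which held for 12% of all tested genes.

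Ndufs8 had the smallest p of complex I, at 2667, 2319.6 and 2002 normalised counts in LXR-DKO, all above its WT values (0.34 ± 0.10, adjusted p = 0.247). In complex III it was Uqcr11, a small subunit, at 3597, 3154 and 3366 in WT and 4382, 4978 and 3849 in LXR-DKO (0.38 ± 0.12, adjusted p = 0.289). In ATP synthase it was Atp5j2, at 5150.2, 5960.1 and 4657 in LXR-DKO (0.34 ± 0.10, adjusted p = 0.267). In each of these genes LXR-DKO replicate 3 was closest to WT. The muscle form Cox6a2 was at 13781, 11876 and 12276 in WT and 15424, 17752 and 14907 in LXR-DKO (0.34 ± 0.11, adjusted p = 0.317).

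Complex II had the smallest median in this comparison, 0.07, with Sdha at -0.01 ± 0.09 (adjusted p = 0.977), Sdhb at 0.14 ± 0.08 (adjusted p = 0.513), Sdhc at 0.17 ± 0.08 (adjusted p = 0.468) and Sdhd at 0.00 ± 0.06 (adjusted p = 0.995). Their differences were all smaller than those of the leading members of complexes I, III and IV named above, and none was tested against them. In normalised counts the catalytic pair of ATP synthase was near WT too. Atp5a1 had 0.05 ± 0.09 (adjusted p = 0.863) and Atp5b 0.06 ± 0.09 (adjusted p = 0.835). On the TPM scale Atp5a1 had 0.05 ± 0.06 and Atp5b 0.24 ± 0.09 (limma adjusted p = 0.370), beside a median of 0.17 over ATP synthase.

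In Macrophage-depleted against WT hearts no member passed the test either (limma, 0 of 84, with 0.238% of all tested genes called), and 5 members had an unadjusted p below 0.05. With voom weights the count was 0, and with a weight for each library it was 1, Cox7a1. A small shift was shared: 75 of 84 members were below 0, with a median log2 difference of -0.06 against 0.00 over all tested genes. This shift rests on replicate 2, without which the median was 0.01. Without replicate 1, the library that kept Siglec1, the median was -0.10. For 7 of the 84 members all depleted libraries lay below all WT libraries, beside 8.15% of all tested genes, so the members were near the background.

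The members with the smallest p in this comparison were of complex IV. Cox7a1, the heart and skeletal muscle form of subunit 7a (ENSMUSG00000074218, chr7:30184144-30186078), had normalised counts of 7140.2, 6913 and 7021 among WT libraries, against 6502, 4950.4 and 5379 in Macrophage-depleted libraries. All 3 depleted libraries lay below WT, and the log2 difference was -0.33 ± 0.11 (adjusted p = 0.416). Cox4i2, a form of subunit 4 linked to low oxygen, was at 92.5, 87.0 and 74.4 in WT and 59.1, 60.1 and 57.6 in Macrophage-depleted libraries (-0.51 ± 0.20, adjusted p = 0.534). Ndufa4l2, another gene linked to low oxygen, was at 213, 203 and 204 in WT and 193, 158 and 169 in Macrophage-depleted libraries (-0.26 ± 0.10, adjusted p = 0.579). These low members also lay wholly below WT without passing the test. The smallest p of the other complexes belonged to Ndufv3 of complex I (-0.21 ± 0.10, adjusted p = 0.648), Uqcrq of complex III (-0.18 ± 0.10, adjusted p = 0.757) and Atp5s, an ATP synthase-associated factor (0.12 ± 0.11, adjusted p = 0.942). In complex II the differences ran from -0.04 (Sdhb) to 0.03 (Sdhc).

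The muscle and ubiquitous forms of complex IV subunits were set against each other within each library, which cancels any shift common to both. The ratio of Cox7a1 to Cox7a2 in TPM was 5.39, 5.60 and 5.64 in WT and 4.81, 4.55 and 4.07 in Macrophage-depleted libraries. It was 5.70 and 6.03 in Mertk-KO and 5.49, 4.70 and 5.01 in LXR-DKO libraries. The Macrophage-depleted values were below every WT value, and those of Mertk-KO above. The ratio of Cox6a2 to Cox6a1 was 15.2, 14.1 and 13.9 in WT and 19.8, 17.7 and 18.4 in LXR-DKO libraries, without overlap, and 18.0, 13.9 and 14.3 in Macrophage-depleted and 13.5 and 14.2 in Mertk-KO libraries, across the WT range. The ratio of Cox8b to Cox8a, at 9.41, 8.72 and 7.67 in WT, overlapped between WT and each other group except Mertk-KO, where it was 9.58 and 10.7. On the scale of normalised counts the Cox8b ratio of Mertk-KO, at 5.45 and 5.97, overlapped that of WT, at 5.45, 4.87 and 4.32, while the other gaps named here held on both scales. These ratios were given no test, and a ratio shows unequal levels of the 2 genes, not which of them changed.

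**Figure D3:**
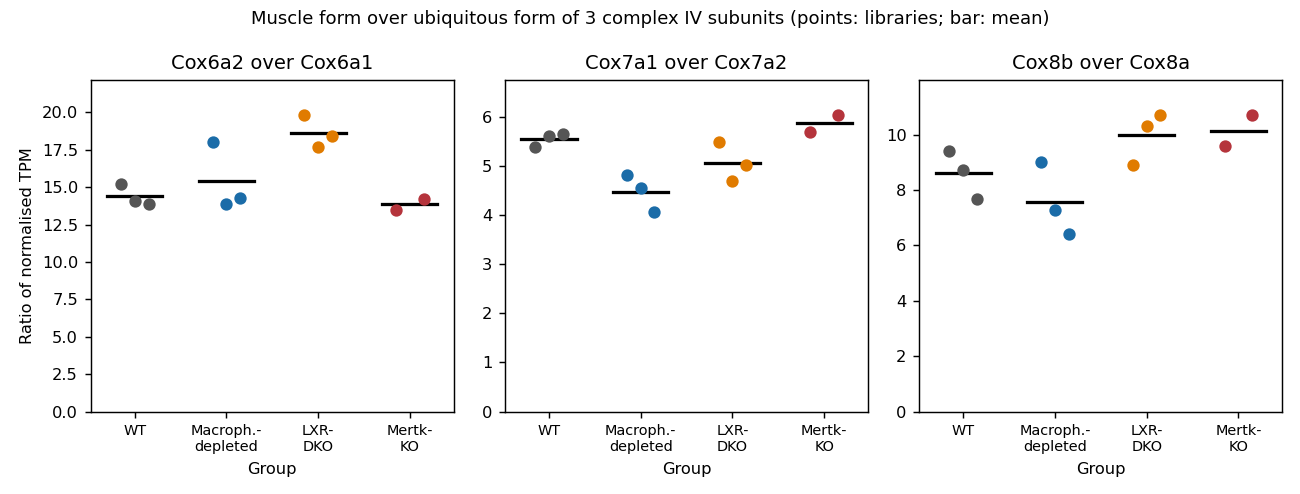
Ratio of the muscle form to the ubiquitous form of 3 complex IV subunits (y axis, ratio of normalised TPM, starting at 0) by group (x axis), with a point for each library and a bar at the group mean. The 3 Macrophage-depleted points of Cox7a1 over Cox7a2 lie from 4.07 to 4.81, below the WT points at 5.39 to 5.64, and the 3 LXR-DKO points of Cox6a2 over Cox6a1 lie from 17.7 to 19.8, above the WT points at 13.9 to 15.2.

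The promoters of the Cox7a pair are shown because their ratio lay below every WT value in all Macrophage-depleted libraries. In TPM the ratios of Macrophage-depleted and LXR-DKO libraries overlapped, so a low ratio was not particular to depletion. Each line gives the bases outside annotated exons among the 120 before the RefSeq start in GRCm38.p6, with matches to CCAAT or its complement and to GGGCGG in capitals. Cox7a1 (chr7:30184051-30184143, plus strand) holds a CCAAT element on the opposite strand at bases 74 to 70 before the start and no GGGCGG in this stretch. Cox7a2 (chr9:79759879-79759973, minus strand) holds GGGCGG at bases 44 to 39 and no CCAAT in this stretch. None of the NRF1, ETS, ERR and YY1 motifs was in either stretch.
Cox7a1: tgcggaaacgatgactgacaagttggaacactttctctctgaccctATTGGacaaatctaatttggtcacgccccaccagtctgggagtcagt
Cox7a2: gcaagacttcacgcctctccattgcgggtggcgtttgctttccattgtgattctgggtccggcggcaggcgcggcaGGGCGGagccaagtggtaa

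Between the perturbed groups, Mertk-KO against Macrophage-depleted hearts gave the most calls, 61 of 84 members higher and 0 lower, with 9.39% of all tested genes called higher and 11.6% lower. This comparison shares the Mertk-KO libraries with that against WT, and 34 of the 35 members called there were called here too. Cox7a1 led, with 8350.1 and 10402 in Mertk-KO against 6502, 4950.4 and 5379 in Macrophage-depleted libraries, and rose by 0.74 ± 0.12 (adjusted p = 0.00418). Cox8b rose by 0.68 ± 0.14 (adjusted p = 0.00937), Ndufv3 by 0.60 ± 0.11 (adjusted p = 0.00540) and Uqcrq by 0.60 ± 0.11 (adjusted p = 0.00544). By complex, 29 of 36 members of complex I, 3 of 4 of complex II, 7 of 9 of complex III, 11 of 18 of complex IV and 11 of 17 of ATP synthase rose. The count was 33 without Macrophage-depleted replicate 2 and 34 without Mertk-KO replicate 2. It was 0 with only these 2 groups in the fit and 3 when each library was given a weight of its own.

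In LXR-DKO against Macrophage-depleted hearts 9 members rose and 0 fell, with 1.89% of all tested genes called higher and 1.35% lower. They were Ndufv3, Ndufc1, Ndufs8 and Ndufs6 of complex I, Uqcr11 and Uqcrq of complex III, Cox8b and Cox7a1 of complex IV, and Atp5j2. Ndufv3, a complex I subunit of the NADH-oxidising module, had the smallest p, at 2902, 3284 and 2634 in LXR-DKO against 2289, 1903 and 2195 in Macrophage-depleted libraries (0.46 ± 0.10, adjusted p = 0.0246). The count was 0 without Macrophage-depleted replicate 2 or 3 and without LXR-DKO replicate 1 or 2, 2 without WT replicate 1, 1 without WT replicate 2 or 3, 33 without either Mertk-KO library and 15 without LXR-DKO replicate 3. It was 1 in the TPM table, 0 without a trend of the variance with level and 45 with a weight for each library. In LXR-DKO against Mertk-KO hearts no member passed (limma, 0 of 84, against 2.46% of all tested genes). The median was -0.14, 17 members had an unadjusted p below 0.05, and voom weights gave 0 calls.

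The members are short genes, and in these libraries short genes moved as a class. The median length of the annotated principal transcript was 810.0 bases over the tested members and 2869 over all tested genes, and 53 of the 84 members were under 1000 bases. In Mertk-KO against WT the median log2 change of all tested genes was 0.24 under 1000 bases, 0.17 from 1000 to 1500 bases and -0.06 above 1500 bases. The members' medians in the same classes were 0.36, 0.34 and 0.28, each above that of all genes. Of the members, 19 of 53 under 1000 bases, 7 of 12 from 1000 to 1500 and 9 of 19 above 1500 were called higher, against 10.4%, 7.87% and 2.16% of all tested genes. Across all genes the rank correlation of the change with length was -0.404 (Spearman, a description over genes of the same libraries), and across the 84 members it was -0.273.

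When each library's trend with length was removed, 0 members were called in Mertk-KO against WT, with a median change of 0.15 and 74 of 84 above 0. The smallest adjusted p was then 0.0608, for Sdhc, and 1.95% of all tested genes were still called. A length computed from the deposited tables themselves (reads over TPM) also left 0 calls, with a median of 0.08. Removal of the trends with length and GC content left 2 calls, Ndufv2 (0.45) and Ndufab1 (0.41), with a median of 0.11. With the median length over coding transcripts, the length definition used at first, 6 members were called and the median was 0.22. In LXR-DKO against WT the median fell from 0.19 to 0.06 once the length trend was removed. In Mertk-KO against Macrophage-depleted hearts 21 members were still called, 13 with length and GC content removed and 10 with the length from the deposited tables.

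**Figure D4:**
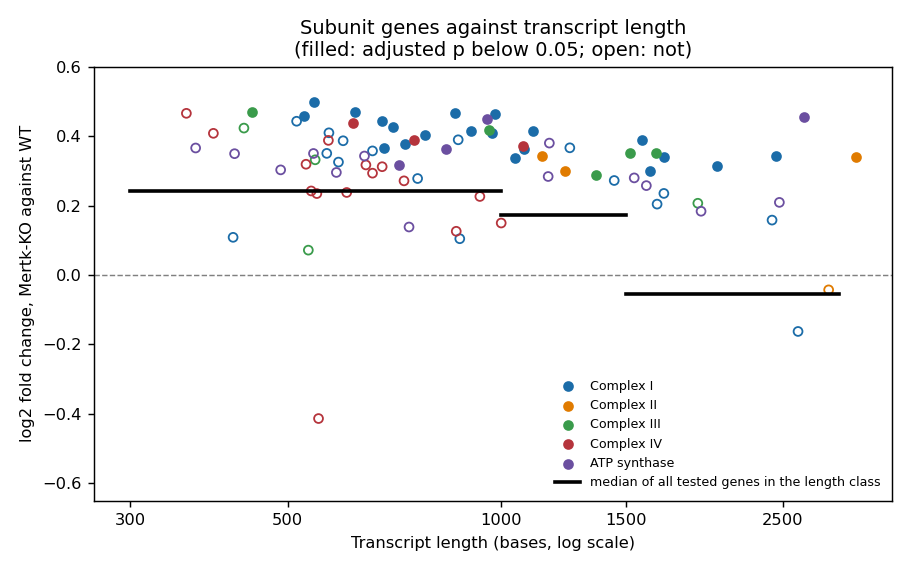
Log2 fold change in Mertk-KO against WT (y axis) of the 84 tested subunit genes against the length of their annotated principal transcript (x axis, bases, log scale), filled where the adjusted p was below 0.05. Black bars mark the median of all tested genes in 3 length classes, at 0.24, 0.17 and -0.06, and most subunit genes lie above the bar of their class.

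Other genes of the pathway were read beside the members. The 13 mitochondrially encoded subunits, the partners of the nuclear ones in complexes I, III, IV and ATP synthase, had 0 calls in Mertk-KO against WT (limma), 2 unadjusted p below 0.05 (mt-Nd4l at -0.30 and mt-Nd5 at -0.41, the latter with adjusted p = 0.107) and a median of 0.09. The members' reads over those of these 13 genes were 0.106 ± 0.00381 in WT and 0.121 ± 0.0106 in Mertk-KO, with single values from 0.102 to 0.128 over all libraries. Of 45 tested assembly factors 3 rose in Mertk-KO against WT, where 3.38% of all tested genes were called higher: the copper chaperones Cox17 (0.44 ± 0.11, adjusted p = 0.0339) and Cox19 (0.46 ± 0.09, adjusted p = 0.0161), and Ndufaf7 (0.36 ± 0.10, adjusted p = 0.0418). Their median was 0.26. The complex I assembly factor Ndufaf1 fell in LXR-DKO against WT by 0.44 on the log2 scale (SE 0.08, adjusted p = 0.0298). Of 19 genes of electron carriers and coenzyme Q synthesis, Coq10a rose in Mertk-KO (0.37 ± 0.09, adjusted p = 0.0315), 1 call beside the same 3.38%, and the median was 0.24.

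Among 18 regulators of respiratory chain genes, 3 fell and 0 rose in Mertk-KO against WT, where 5.89% of all tested genes were called lower. The median transcript length of the 18 was 3706 bases, in the class above 1500 bases whose median over all tested genes was -0.06. Those that fell were Gabpa, the DNA-binding part of GABP (-0.67 ± 0.17, adjusted p = 0.0337), the coactivator Ppargc1b (-0.75 ± 0.21, adjusted p = 0.0487) and the corepressor Nrip1 (-0.82 ± 0.14, adjusted p = 0.0120). The coactivator Ppargc1a had -0.33 ± 0.13 (adjusted p = 0.112), and Esrra, the nuclear receptor ERR alpha, had 0.28 ± 0.09 (adjusted p = 0.0626). Against Macrophage-depleted hearts, Esrra rose by 0.34 ± 0.09 (adjusted p = 0.0219) and Ppargc1a fell by 0.51 on the log2 scale (SE 0.13, adjusted p = 0.0183). Cytosolic ribosomal protein genes, also short and abundant, had 31 of 84 called higher in Mertk-KO against WT, with a median of 0.33, beside 3.38% of all tested genes. In Mertk-KO against Macrophage-depleted 22 were called higher, beside 9.39% of all tested genes. In LXR-DKO against WT the median of the ribosomal genes was 0.26 with 1 call, where 0.418% of all tested genes were called in either direction. In Macrophage-depleted against WT 73 of the 84 were above 0, with a median of 0.08 and 0 calls (limma, 2 with an unadjusted p below 0.05). How these genes differ from the members was not tested.

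Cell type markers moved with some of these groups, and their part in the results was not tested. Summed over 9 macrophage markers, WT libraries had 3956.5 to 4644 normalised counts, Mertk-KO libraries 4870.1 to 6876, LXR-DKO libraries 3247 to 4164 and depleted libraries 1274 to 2963. The 4 atrial cardiomyocyte markers summed to 3433 to 25595 in WT, 3155 to 6194 in Macrophage-depleted, 1675 to 2995 in Mertk-KO and 1611 to 17491 in LXR-DKO libraries, and none of these 4 genes was at 0 in every library of a group. Of the 10 sarcomere genes 1 rose in Mertk-KO against WT, where 3.38% of all tested genes were called higher. It was the myosin light chain Myl3 (0.49 ± 0.10, limma adjusted p = 0.0213). The sarcomere sums were 938532 to 1016195 in WT and 950209 to 1058914 in Mertk-KO libraries. The 4 skeletal muscle markers were Acta1, Ckm, Tnnt3 and Myh4. Acta1 (1.56 ± 0.31, adjusted p = 0.0182) and Ckm (0.51 ± 0.11, adjusted p = 0.0235) rose in Mertk-KO against WT, beside the same 3.38%. Heart muscle expresses both too. Myh4 was at 2.35 and 2.90 normalised counts in Mertk-KO, below the worth of 3 reads. The 4 genes summed to 24547 to 26438 in WT, 21695.5 to 28491 in Macrophage-depleted, 29280 to 31629 in LXR-DKO and 36708 to 44371 in Mertk-KO libraries. The markers of fibroblasts, endothelial cells, pericytes and smooth muscle, adipocytes and erythrocytes had no call in Mertk-KO or LXR-DKO against WT. Against Macrophage-depleted hearts some had. In LXR-DKO, where 1.89% of all tested genes were called higher, 3 of 4 adipocyte markers (median 2.46) and 1 of 7 pericyte and smooth muscle markers were called higher. In Mertk-KO, where 9.39% of all tested genes were called higher, 1 of 4 adipocyte (median 1.61) and 1 of 5 endothelial markers were. In Macrophage-depleted against WT the adipocyte median was -1.74, with 0 calls (limma, 3 with an unadjusted p below 0.05). All 6 adipocyte markers, 4 of them tested, summed to 238 to 410.4 in Macrophage-depleted, 326 to 379.9 in WT, 359 to 531 in LXR-DKO and 439 to 474 in Mertk-KO libraries. Of 9 macrophage markers, 7 were called higher in Mertk-KO and 2 in LXR-DKO against Macrophage-depleted, beside the same 9.39% and 1.89% of all tested genes. In Macrophage-depleted against WT 1 was called lower, where 0.238% of all tested genes were called in either direction.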

How the data were processed

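RNA-seq of polyA RNA from 11 heart libraries was used; per the labels' protocols it was amplified with the Ovation Single Cell kit. CASAVA 1.8.2, RSEM 1.2.20, kallisto 0.43.1, cutadapt and the build GRCm38 are named in the submitters' processing notes. The role of each tool, the scaling and the use of strand are not given in these sources. Signal values were deposited in 2 tables, a normalised count (35584 genes) and a normalised TPM (33318 genes). Each library's smallest count value was taken as 0.5 read, which gave estimated reads; only 58.9% to 62.3% of low values were whole within 0.01 read, so no count model was used. Estimated reads were divided by the effective library size and multiplied by its mean over libraries (normalised count).

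Genes with a mean of at least 10 were tested with limma 3.58.1 in R 4.3.3 on log2(normalised count + 1), eBayes with a trend, 4 groups in 1 model, 7 residual degrees of freedom, two-sided. Benjamini-Hochberg adjustment ran over all 13884 genes, threshold 0.05. This scale understates changes of low genes. The script was tested on simulated data. Depth limits the low members: 3 reads are worth 2.12 to 4.22 normalised counts. Symbols, positions and principal transcripts are from GENCODE vM21 (GRCm38). The TPM table holds 11 non-coding entries named after subunit genes and the table of counts none, so reads of such copies may be counted with members.

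Named members were, by complex and comparison with WT, up to 4 called members of smallest p (or the member of smallest p), all of complex II, the isoform pairs, the c-ring genes and the F1 pair; Ndufs1, Uqcrb, Ndufa11 and Ndufv3, and the members named in comparisons between perturbed groups, were chosen after their values were seen. The members and lists were chosen with earlier results of these data known. Alternatives were run for scaling, filter, pseudocount, table, weights, block, length and each library. The transcript length was first taken as the median over coding transcripts and was changed to the principal transcripts after implausible lengths, and the calls under it, were seen; both are reported.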

Additional observations from a re-analysis of the deposited data

How the results depend on the processing

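The 28 alternatives left the direction of the members' median in every comparison as reported, except for Macrophage-depleted against WT without Macrophage-depleted replicate 2 (0.01). Counts of members called depended strongly on the setting.

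Mertk-KO against WT gave 35 calls as reported. It gave 12 with no minimum, 4 in the TPM table (Uqcrq, Cox6b1, Cox7a2l and Ndufc1), 20 with library size taken without mitochondrial reads and 7 with quantile normalisation (6 higher, and Ndufs1 lower). It gave 0 with only the 2 groups in the fit, 0 with weights per library, 0 with eBayes without a trend, 0 with the length trend removed, 2 with length and GC removed, 0 with the length implied by the tables and 6 with the median coding-transcript length. Leaving out 1 library gave 0 to 54. Its median of 0.34 became 0.24 (quantile), 0.15 (length), 0.11 (length and GC), 0.0808 (implied length) and 0.22 (coding length), and ran from 0.25 to 0.44 without 1 library. Ndufc1 turned to -0.0190 with the implied length.

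Mertk-KO against Macrophage-depleted gave 61 calls, and 40 with quantile normalisation (39 higher, 1 lower), 0 with only the 2 groups, 3 with weights per library, 39 without a trend, 21 with length removed, 13 with length and GC removed, 10 with the implied length, 36 with the coding length and 33 to 72 without 1 library. Its median of 0.39 became 0.28, 0.19, 0.14, 0.11 and 0.27 under quantile, length, length and GC, implied length and coding length, and 0.30 to 0.50 without 1 library. LXR-DKO against Macrophage-depleted gave 9 calls, and 45 with weights per library, 1 in the TPM table (Ndufv3), 0 without a trend, 1 with length removed, 1 with length and GC removed, 0 with the implied length, 4 with the coding length and 0 to 33 without 1 library. Its median of 0.26 became 0.10 (length), 0.10 (length and GC) and 0.0648 (implied length) and 0.18 to 0.32 without 1 library. LXR-DKO against WT gave 15 calls with weights per library and 0 otherwise, and its median of 0.19 became 0.0644 (length), 0.0545 (length and GC) and 0.0339 (implied length). LXR-DKO against Mertk-KO gave 1 call with a minimum mean of 50 and 1 with median-ratio size factors (Sdhd, lower), 1 with length and GC removed (Ndufv2, lower) and 0 to 4 without 1 library, with medians of -0.22 to -0.06. Macrophage-depleted against WT gave 1 call (Cox7a1, lower) with weights per library, and medians of -0.10 to 0.01 without 1 library. The cause of these moves was not tested.

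Replicate numbers did not pair the libraries: same-numbered libraries' deviations correlated by -0.0937 to 0.107. With the replicate block, Mertk-KO against WT gave 0 calls, LXR-DKO against Macrophage-depleted 3 (Ndufs8, Cox8b and Ndufv3) and Mertk-KO against Macrophage-depleted 42.

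For single named members, 1946 values kept their side of the threshold, 277 lost it, 13 gained it and 1 of a called member turned direction. Changes of sign in members that had not passed the test were counted among the 1946. Several such members did change sign: in Mertk-KO against WT, Cox8a ran from -0.115 to 0.309 and Ndufa4l2 from -0.0729 to 0.273 over the alternatives. The settings with GC, implied length and coding length were chosen after seeing the data. Depth limits only the lowest members, Cox6b2 and Cox4i2.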
